A study of Sus scrofa with 57 samples.

Results

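RAB GTPases and the TBC1D proteins that regulate them were examined in fat cells of lean and obese pigs. Members were the genes whose symbol in the expression tables is RAB or TBC1D followed by a number and at most 1 letter, with 1 exception that the rule leaves out, and 72 of 25285 gene identifiers met this rule. They carry 70 symbols, 47 identifiers being RAB genes and 25 TBC1D genes, because TBC1D1 is split over 3 identifiers. A RAB protein is a membrane switch that is active when bound to GTP and recruits the effectors that move, tether and fuse vesicles. The TBC domain speeds up the hydrolysis of GTP and so turns a RAB off, while exchange factors turn it on. In adipocytes the family is known for the insulin-dependent delivery of GLUT4 glucose transporter vesicles to the cell surface and for traffic at lipid droplets.

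The pigs came from an F2 intercross of Duroc and Göttingen minipigs and were chosen from the lean and the obese end of that population. Mature adipocytes, which float after collagenase digestion, were isolated from retroperitoneal fat of each animal. RNAseq covered 5 lean pigs (pig-402, pig-407, pig-413, pig-525 and pig-577) and 5 obese pigs (pig-433, pig-473, pig-524, pig-529 and pig-572), all males, with 11 libraries because pig-572 has 2, which were averaged. DNA methylation was measured in pigs of both sexes by capture of methylated fragments (mDNAcap) and by reduced representation bisulfite sequencing (RRBS), which reads CpGs near MspI cutting sites. The labels name no treatment of the animals.

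TBC1D16 is the member whose locus carries regions from both methylation assays, and the study lists 4 CpG sites within it. Their sequences are shown because they mark where in this gene methylation was read. The locus of TBC1D16 (ENSSSCG00000017159) in the expression tables is chr12:2454308-2526044 of Sscrofa10.2. Each site is written as the study's list gives it, with no statement of the strand relative to the gene, and with the CpG at its centre in capitals. Exons and introns were not placed, because no annotation of this build was used here.
chr12:2482258-2482288: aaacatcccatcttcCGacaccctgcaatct
chr12:2500597-2500627: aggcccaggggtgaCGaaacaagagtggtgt
chr12:2517389-2517419: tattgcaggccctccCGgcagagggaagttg
chr12:2518132-2518162: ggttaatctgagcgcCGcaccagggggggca
The site at 2482258 lies inside a deposited RRBS region that required values from at least 5 animals per group. The site at 2500597 lies inside a region that required at least 3, and the other two sites lie in no deposited RRBS or mDNAcap region. A CCGG, the sequence that MspI cuts, is present in 1 of the 4 stretches, the one that starts at 2517389.

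The adipocyte label was checked against marker genes. Of 16 adipocyte symbols in the marker list, 8 are named in the expression tables, and all 8 stood well above the smallest level tested. The most abundant of them was GPD1, and PLIN1, which coats lipid droplets, stood at 289 ± 39.8 FPKM in lean and 341 ± 61.7 in obese pigs (SD, n = 5 each). FPKM is the number of fragments per kilobase of transcript, relative to all mapped fragments of the library, and all values given here were further divided by a size factor for each library (scaled FPKM), so they can be compared between genes and between pigs. The summed level of the 8 markers was 1047, 1056, 1133, 1189 and 1136 in lean pigs and 1253, 1278, 1256, 1312 and 1154 in obese pigs, each group in ascending order of pig number, which holds for all values by pig. Obese pigs exceeded every lean pig in 4 of 5 cases. In bulk RNA, fewer cells of a type and less RNA per cell cannot be told apart, and this holds for every level given here.

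RAB1A, which acts between the endoplasmic reticulum and the Golgi, had the highest mean over the 10 pigs, 145 scaled FPKM. TBC1D20, a GTPase-activating protein for RAB1 and RAB18, followed with 75.3, and then came RAB13 with 60.1, RAB2A with 55.6 and RAB10 with 36.4. These 5 genes made up 51.1% of the summed scaled FPKM of the family. A mean of at least 1 was reached by 42 members, 26 RAB and 16 TBC1D genes, and these were tested between lean and obese pigs. Another 30 members were below that level, among them RAB19, RAB38 and TBC1D21, which are listed at 0 in every pig. Some RAB genes that serve regulated secretion in other tissues were near 0, with means of 0.0292 for RAB27B, 0.00697 for RAB26 and 0.00275 for RAB37, while RAB3D and RAB3A of the same role had means of 3.0 and 1.27. RAB27B, RAB26 and RAB3A were named after their values were seen.

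**Figure D1:**
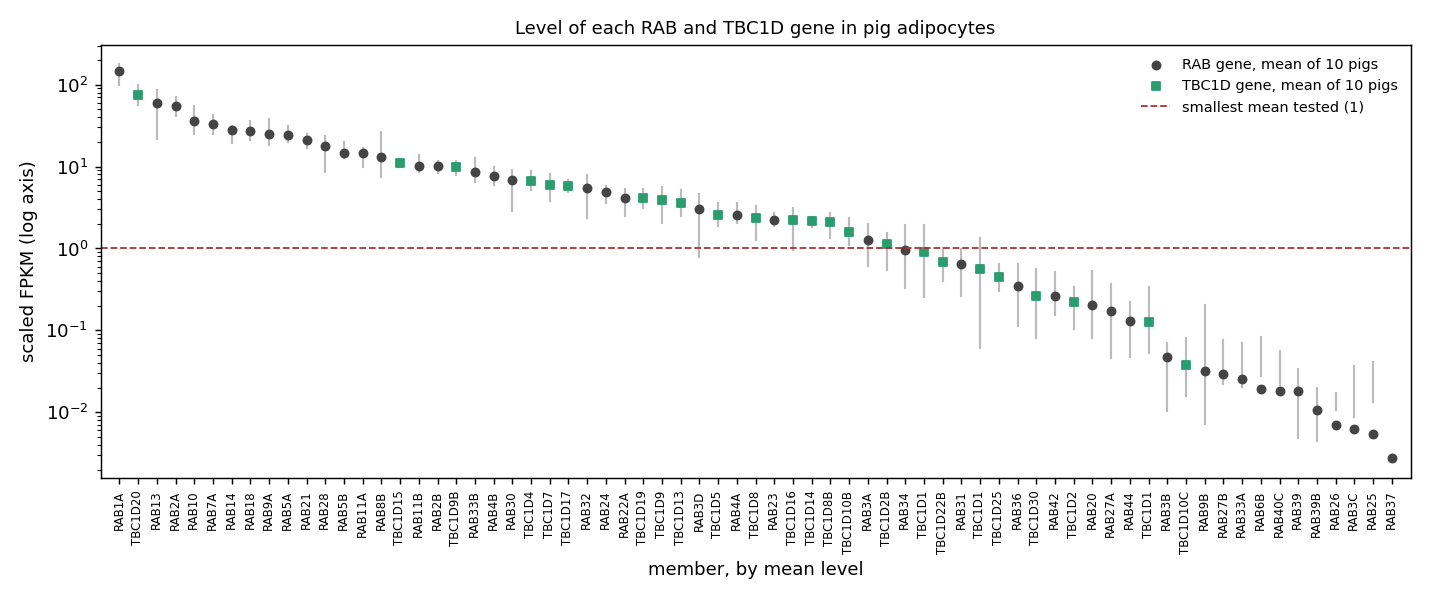
Mean scaled FPKM over 10 pigs (log axis) of each member listed above 0 in at least 1 pig, ordered by level, with a vertical line from the lowest to the highest pig above 0. Circles are RAB genes and squares TBC1D genes, and the dashed line marks the smallest mean tested, 1. RAB1A leads with 145 and TBC1D20 is the highest TBC1D gene with 75.3.

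Neighbours in this order often overlapped between pigs. RAB1A ranged from 99.98 to 177 over the 10 pigs, and TBC1D20 from 56.1 to 99.6, so the first and the second gene did not overlap. RAB13 ranged from 21.6 to 85.6 and RAB2A from 40.9 to 69.8, so these genes overlapped each other and TBC1D20. The summed level of all members was 713 ± 53.9 in lean and 743 ± 33.2 in obese pigs (SD, n = 5 each). RAB genes alone summed to 579 ± 52.6 in lean and 590 ± 45.3 in obese pigs. TBC1D genes alone summed to 138, 139, 124, 133 and 135 in lean pigs and to 177, 145, 148, 145 and 151 in obese pigs. All 5 obese pigs were above all 5 lean pigs in this sum, of which TBC1D20, at a locus of 4240 bases, made up 52.5%. The groups overlapped in TBC1D20 alone, and no share over all genes exists for such a sum. It therefore does not describe the TBC1D genes in general.

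Obese and lean pigs were compared with limma on log2(scaled FPKM + 1), and p-values were adjusted over all 10196 genes tested. The added 1 shrinks the log2 fold changes of genes at low levels below what their ratio of means gives. Fold changes of genes or sets at unlike levels are therefore not directly comparable. An adjusted p under 0.05 was the threshold. It was passed by 0 members and by 1 gene in all, 0.00981% of those tested (C10ORF46, outside the family and named after its values were seen), and the lowest adjusted p of a member by limma was 0.0821 for TBC1D9. Before adjustment, p was under 0.05 for 12 of 42 members (28.6%) against 20.5% of all genes tested. Higher values in obese pigs accounted for 9 of the 12 (21.4% of members against 11% of genes) and lower values for 3 (7.14% against 9.48%). Among TBC1D genes 6 of 16 were higher and 1 lower by this measure, and among RAB genes 3 of 26 were higher and 2 lower. The median log2 fold change was 0.10 over the tested members, 0.07 over RAB genes and 0.13 over TBC1D genes, beside 0.01 over all genes. Obese and lean pigs did not overlap at all in 4 members, or 9.52%, while 4.13% of all genes tested had no overlap. In these 4 the obese pigs were higher, which was the case for 2.44% of all genes, and 0 members had all obese pigs below all lean pigs, against 1.69% of all genes. Without lean pig-402 the adjusted threshold was passed by 146 genes and still 0 members. In that fit 8 members had all obese pigs above all lean pigs (19.0% against 5.73% of all genes) and 1 had all of them below (2.38% against 4.36%). On FPKM as deposited, with no size factors, 4 members were higher at an unadjusted p under 0.05 (9.52% against 5.98% of all genes) and 2 lower (4.76% against 7.64%), and 1 member was higher without overlap (2.38% against 0.976%).

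**Figure D2:**
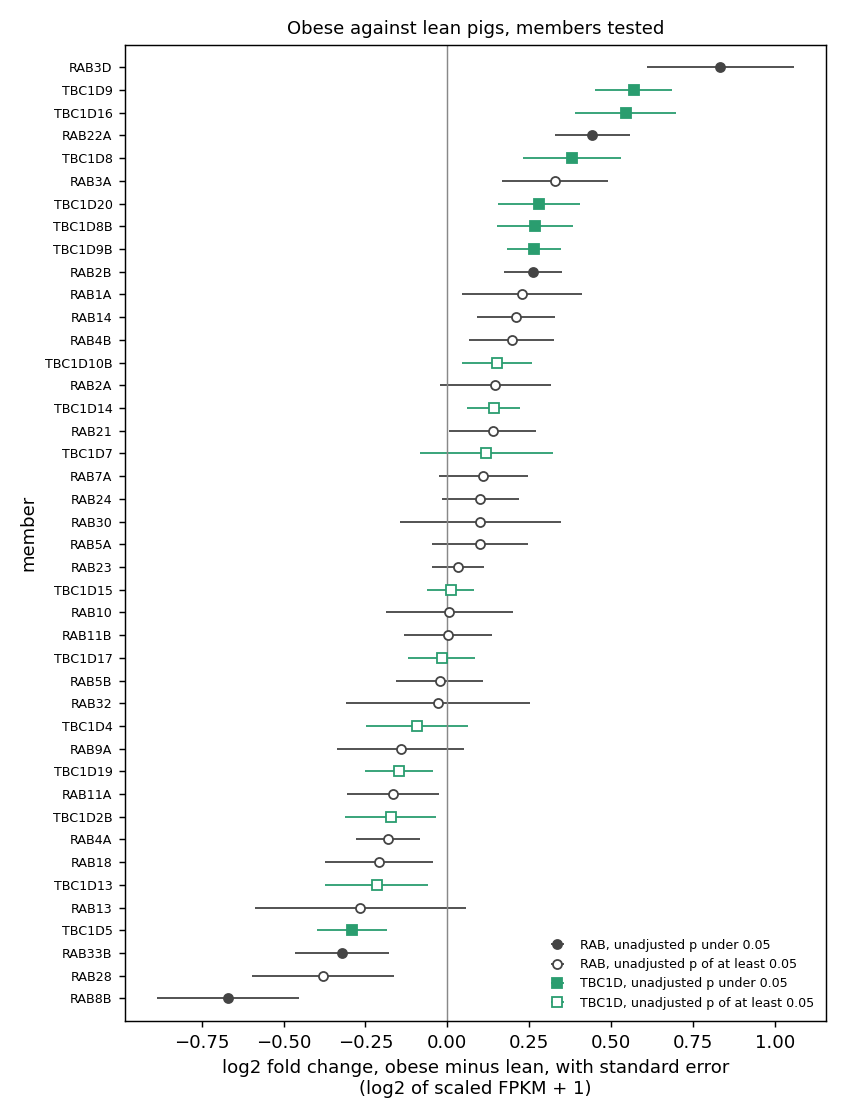
Log2 fold change of obese over lean pigs, on the scale of log2(scaled FPKM + 1), for the 42 members tested, with bars of 1 standard error (n = 5 pigs per group). Circles are RAB genes, squares TBC1D genes, and filled symbols mark an unadjusted limma p under 0.05. RAB3D has the highest value, 0.83, and RAB8B the lowest, −0.67, and no member passed the adjusted threshold.

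Among the TBC1D regulators, TBC1D9, TBC1D9B and TBC1D16 were higher in every obese pig than in every lean pig. On FPKM as deposited, TBC1D9 was the 1 member without overlap. TBC1D9 stood at 3.27, 3.04, 3.19, 3.27 and 2.03 scaled FPKM in lean pigs and at 5.66, 4.31, 5.43, 4.33 and 4.56 in obese pigs. The lowest lean value was that of pig-577, and the highest obese values were those of pig-433 and pig-524. The group means were 1.64-fold apart and the log2 fold change was 0.57 ± 0.12 (SE), higher in 5 of 5 obese pigs, with an adjusted p of 0.0821 by limma and an exact permutation p of 0.00794. That exact p is the smallest that 5 against 5 pigs can give. It is unadjusted and follows from the lack of overlap alone. For this and the other members named for having no overlap it therefore adds nothing to that description. TBC1D9 is represented by a locus of only 699 bases at chr8:91990976-91991674, so its level rests on a fragment of a gene model.

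TBC1D9B, a relative of TBC1D9 that acts on RAB11A, had values of 9.53, 9.43, 9.10, 8.31 and 7.97 in lean pigs and 11.2, 10.17, 10.9, 11.8 and 10.1 in obese pigs. The spread within each group was small and the gap between the highest lean and the lowest obese pig was narrow. Its log2 fold change was 0.26 ± 0.08 (SE), with an adjusted p of 0.152 by limma and an exact permutation p of 0.00794, and 5 of 5 obese pigs were above the lean group. TBC1D16, a GTPase-activating protein for the recycling GTPase RAB4A, was at 2.18, 2.19, 1.12, 0.944 and 1.78 in lean pigs and at 3.16, 2.59, 3.04, 2.24 and 2.92 in obese pigs. Lean pig-413 and pig-525 had the lowest levels, and obese pig-529 came close to the upper lean pigs. Obese pigs had a 1.70-fold higher mean, and the log2 fold change was 0.54 ± 0.15 (SE) with an adjusted p of 0.132 by limma and an exact permutation p of 0.00794. RAB4A itself, which sends endosomal cargo quickly back to the surface, was 2.79 ± 0.460 in lean and 2.34 ± 0.275 in obese pigs (SD, n = 5 each). Its log2 fold change was −0.18 ± 0.10 (SE), and the groups overlapped.

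TBC1D20 had 69.4, 75.4, 56.1, 69.8 and 68.8 scaled FPKM in lean pigs and 99.6, 79.1, 78.0, 74.0 and 82.6 in obese pigs. Obese pig-433 was far above the rest, and 4 of 5 obese pigs exceeded every lean pig. The log2 fold change was 0.28 ± 0.13 (SE), with an adjusted p of 0.243 by limma and an exact permutation p of 0.0159. Of its substrates, RAB1A was 135 ± 35.2 in lean and 155 ± 15.2 in obese pigs, and RAB18 was 29.0 ± 6.16 in lean and 24.7 ± 4.05 in obese pigs (SD, n = 5 each), with overlapping groups in both. TBC1D8 was 1.92 ± 0.613 in lean and 2.77 ± 0.515 in obese pigs, with a difference on the log2 scale of 0.38 ± 0.15 (SE). Lean pig-525, at 2.93, was above 3 of the obese pigs. TBC1D8B, which acts on RAB11 and was named after its values were seen, was 1.83 ± 0.484 in lean and 2.38 ± 0.222 in obese pigs.

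The log2 fold change was below 0 in 6 of 16 tested TBC1D genes, and the 1 of them with an unadjusted p under 0.05 was TBC1D5, which turns off RAB7 and works with the retromer in sorting cargo out of endosomes. Its levels were 2.64, 3.06, 3.63, 2.25 and 3.08 in lean pigs and 2.59, 2.15, 2.39, 1.96 and 1.90 in obese pigs. Obese pig-473, pig-529 and pig-572 were below every lean pig, and the groups overlapped through lean pig-525. The log2 fold change was −0.29 ± 0.11 (SE), with an adjusted p of 0.189 by limma and an exact permutation p of 0.0317. RAB7A, the late endosomal and lysosomal GTPase, was 31.8 ± 6.34 in lean and 34.0 ± 2.86 in obese pigs (SD, n = 5 each), with overlapping groups.

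**Figure D3:**
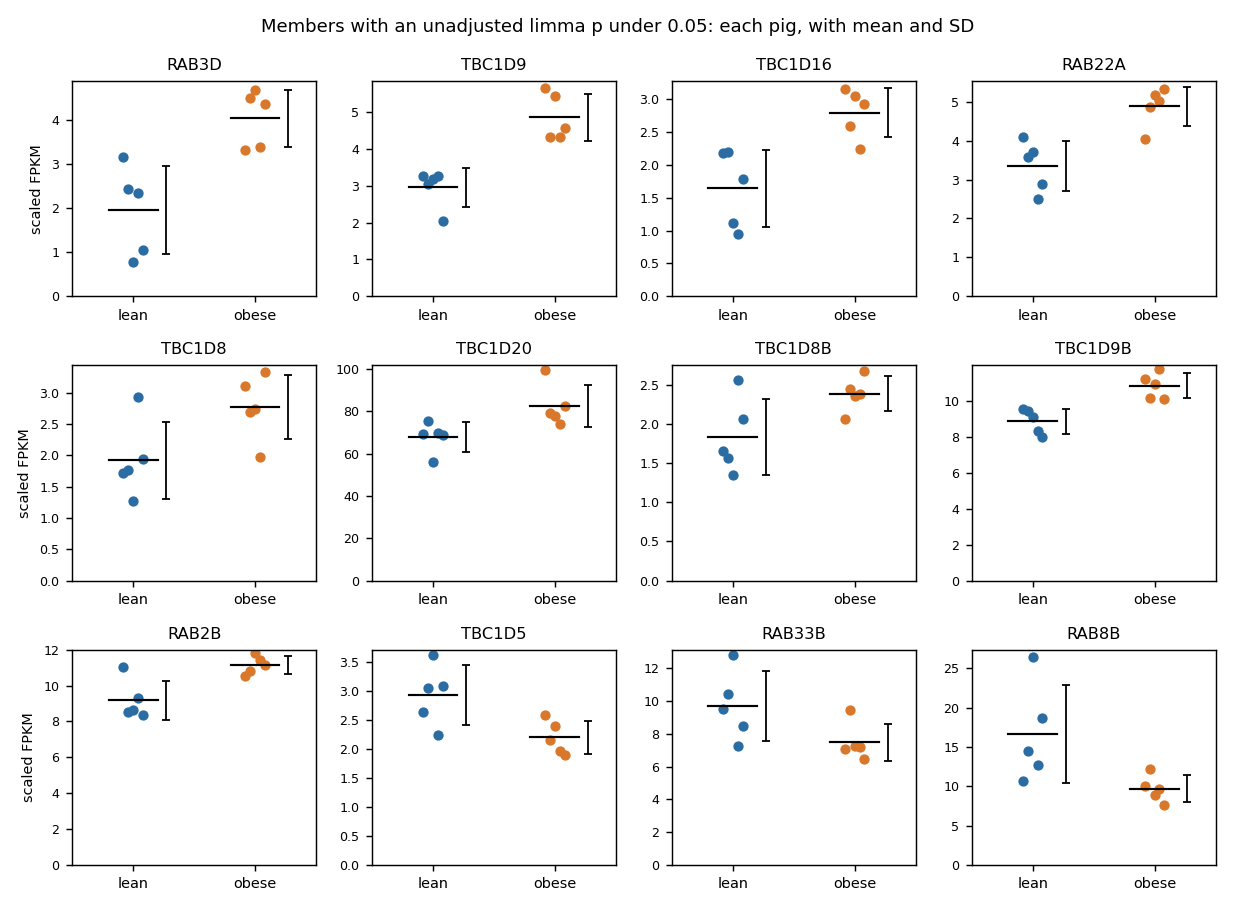
Scaled FPKM of each lean and obese pig (n = 5 each) for the 12 members with an unadjusted limma p under 0.05, with the group mean as a line and the SD as a bar. The axes start at 0 and differ between panels. RAB3D, TBC1D9, TBC1D16 and TBC1D9B show no overlap between the groups, and TBC1D5, RAB33B and RAB8B have the lower mean in obese pigs.

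RAB GTPases of secretion held both ends of the fold changes. RAB3D, a GTPase of secretory vesicles, was at 3.16, 2.43, 0.789, 2.35 and 1.06 scaled FPKM in lean pigs and at 3.31, 4.49, 4.67, 3.38 and 4.37 in obese pigs. Lean pig-413 and pig-577 were lowest, and lean pig-402 almost reached obese pig-433. The mean of obese pigs was 2.07-fold that of lean pigs, and the log2 fold change was 0.83 ± 0.22 (SE), higher in 5 of 5 obese pigs, with an adjusted p of 0.122 by limma and an exact permutation p of 0.00794. RAB8B, which acts in traffic from the Golgi to the plasma membrane, was at 10.7, 14.4, 26.4, 12.8 and 18.6 in lean pigs and at 10.1, 12.2, 8.84, 9.71 and 7.55 in obese pigs. Lean pig-413 was the highest by a wide margin, and 4 of 5 obese pigs were below every lean pig. Its log2 fold change was −0.67 ± 0.22 (SE), with an adjusted p of 0.162 by limma and an exact permutation p of 0.0159. The tables hold 11 secretion members, and 5 of them were tested, 1 being higher and 1 lower at an unadjusted limma p under 0.05. This is 20% each, against 11% and 9.48% of all genes tested. The summed level of all 11 was 120 ± 13.6 in lean and 108 ± 25.05 in obese pigs.

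Of 12 members of the early and recycling endosome 9 were tested, and the other 3, RAB20, RAB25 and RAB31, were under a mean of 1. RAB22A, an early endosomal GTPase, was at 4.09, 3.58, 3.70, 2.51 and 2.89 in lean pigs and at 4.04, 4.86, 5.17, 5.02 and 5.33 in obese pigs. Obese pig-433 lay just under lean pig-402, and the other obese pigs were above every lean pig. The log2 fold change was 0.44 ± 0.11 (SE), with an adjusted p of 0.119 by limma and an exact permutation p of 0.0159. RAB22A was the 1 of the 9 tested members that had an unadjusted limma p under 0.05 (11.1%, against 20.5% of all genes tested). The median log2 fold change of the 9 was 0.10. RAB5A, which drives fusion of early endosomes, was 23.6 ± 4.4 in lean and 25.3 ± 3.69 in obese pigs. Of 8 members of late endosomes and lysosomes 4 were tested, with 0 under an unadjusted limma p of 0.05 (against 20.5% of all genes tested). Their log2 fold changes ran from −0.14 to 0.11.

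Among RAB genes of the endoplasmic reticulum and the Golgi, 6 of 13 members were tested. At an unadjusted limma p under 0.05, 1 was higher and 1 lower (16.7% each, against 11% and 9.48% of all genes tested). The higher one was RAB2B, named after its values were seen, at 9.17 ± 1.09 in lean and 11.2 ± 0.501 in obese pigs (SD, n = 5 each), with a log2 fold change of 0.26 ± 0.09 (SE). RAB2A, its close relative, was 53.2 ± 13.2 in lean and 57.9 ± 6.13 in obese pigs. RAB33B, a Golgi GTPase that also binds the autophagy machinery, had 9.52, 10.4, 12.8, 7.25 and 8.50 in lean pigs and 7.11, 9.46, 7.26, 7.18 and 6.49 in obese pigs. Obese pig-473 stood above the other obese pigs, within the lean range, and 3 of 5 obese pigs were below every lean pig. Its log2 fold change was −0.32 ± 0.14 (SE), with an adjusted p of 0.242 by limma and an exact permutation p of 0.0556. Members linked to the primary cilium numbered 5, of which 3 were tested. Of these 0 were under an unadjusted limma p of 0.05, against 20.5% of all genes tested.

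Members listed for GLUT4 traffic were measured in 14 identifiers, 10 of which were tested. The list, TBC1D16 included, was written with earlier results of these data known. Whether TBC1D16 takes part in GLUT4 traffic was not tested. TBC1D16 was the 1 with an unadjusted limma p under 0.05 (10%, against 20.5% of all genes tested), and the median log2 fold change of the 10 was −0.13. TBC1D4, the substrate of the insulin-activated kinase AKT that restrains GLUT4 vesicles, was at 7.23, 6.39, 6.39, 5.38 and 8.89 in lean pigs and at 8.70, 5.18, 7.17, 5.86 and 5.13 in obese pigs. The groups overlapped over nearly their whole range, and the log2 fold change was −0.09 ± 0.16 (SE). RAB10, the substrate of TBC1D4 that brings GLUT4 vesicles to the adipocyte surface, was at 41.1, 29.2, 24.8, 54.5 and 34.9 in lean pigs and at 32.2, 38.6, 40.8, 32.3 and 35.5 in obese pigs. All obese pigs lay inside the lean range, and the log2 fold change was 0.01 ± 0.19 (SE), with a negative sign on FPKM as deposited. RAB14, which also acts on GLUT4-containing endosomes, was 25.6 ± 3.96 in lean and 29.5 ± 1.28 in obese pigs (SD, n = 5 each). RAB11A, of the recycling endosome, was 15.5 ± 2.09 in lean and 13.8 ± 2.27 in obese pigs.

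RAB13, a GTPase of surface delivery in epithelia and muscle, had 43.6, 64.4, 73.9, 63.2 and 72.3 in lean pigs and 21.6, 65.1, 62.5, 85.6 and 48.8 in obese pigs. The obese group held both the lowest and the highest pig, pig-433 and pig-529. Its log2 fold change of −0.27 ± 0.32 (SE) became 0.04 without obese pig-433. RAB28 was at 19.0, 14.7, 23.8, 23.7 and 19.0 in lean pigs and at 14.5, 21.2, 15.2, 18.1 and 8.67 in obese pigs. Obese pig-572 was the lowest, and the log2 fold change was −0.38 ± 0.22 (SE), with an adjusted p of 0.339 by limma and an exact permutation p of 0.135. TBC1D13, which acts on RAB35, was 3.93 ± 0.588 in lean and 3.31 ± 1.10 in obese pigs, with obese pig-433 the highest of all 10.

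TBC1D1, the relative of TBC1D4 that prevails in muscle, was under a mean of 1 at each of its 3 identifiers. At the longest of them (ENSSSCG00000008774) it had 0.457, 1.22, 1.76, 1.96 and 0.565 in lean pigs and 1.301, 0.793, 0.255, 0.298 and 0.343 in obese pigs. At a second (ENSSSCG00000028983) it had 0.210, 0.659, 0.926, 1.36 and 0.528 in lean pigs and 0.910, 0.373, 0.0604, 0.321 and 0.256 in obese pigs. Lean pig-413 and pig-525 were highest and obese pig-524 lowest at both, and the groups overlapped. The remaining identifier (ENSSSCG00000027836) had a mean of 0.127, and RAB31, a GTPase of Golgi and endosomes, had one of 0.645.

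Lipid droplet members found in the tables were RAB7A, RAB18, RAB32 and RAB40C, of which 3 were tested. An unadjusted limma p under 0.05 was reached by 0 of them, against 20.5% of all genes tested. RAB18, which sits at contacts of droplets with the endoplasmic reticulum, had a log2 fold change of −0.21 ± 0.16 (SE). RAB32 was 5.52 ± 2.13 in lean and 5.39 ± 1.93 in obese pigs (SD, n = 5 each), and the sign of its log2 fold change of −0.03 turned when lean pig-525, lean pig-577 or obese pig-433 was left out. RAB40C had a mean of 0.0183, at a locus of 845 bases. The summed level of the 4 genes was 66.2 ± 8.36 in lean and 64.1 ± 3.95 in obese pigs.

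Genes that work with the family were counted from lists. Of 30 tested partners of GLUT4 traffic, 4 were higher and 1 lower in obese pigs at an unadjusted limma p under 0.05. These are 13.3% and 3.33%, against 11% and 9.48% of all genes tested. The median log2 fold change of the 30 was 0.12. DENND4C, the exchange factor of RAB10, was 8.58 ± 1.19 in lean and 11.2 ± 1.61 in obese pigs (SD, n = 5 each). The Ral inhibitor subunit RALGAPA2 was 3.91 ± 0.985 in lean and 5.94 ± 1.69 in obese pigs, whereas the exocyst subunit EXOC2 was 7.86 ± 0.588 in lean and 6.65 ± 0.633 in obese pigs. None of these 3 passed the adjusted threshold by limma.

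Of the wider RAB cycle (exchange factors, other GTPase-activating proteins, prenylation and membrane extraction), 30 genes were tested. At an unadjusted limma p under 0.05, 6 were higher and 1 lower. These are 20% and 3.33%, against 11% and 9.48% of all genes tested. The groups did not overlap in 10% of the 30, against 4.13% of all genes tested. The median log2 fold change of the 30 was 0.06. EVI5L, another TBC domain protein, was 1.35 ± 0.0973 in lean and 1.95 ± 0.212 in obese pigs, and RGP1, part of the RAB6 exchange factor, was 1.87 ± 0.160 in lean and 2.38 ± 0.323 in obese pigs (SD, n = 5 each). Obese and lean pigs did not overlap in either. RABGGTB, the catalytic subunit of the enzyme that attaches lipid anchors to RAB proteins, was 18.9 ± 1.42 in lean and 14.3 ± 1.84 in obese pigs, also with no overlap. MON1B, of the RAB7 exchange factor, was 2.07 ± 0.236 in lean and 2.73 ± 0.437 in obese pigs.

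RAB effectors numbered 30 tested, of which 5 were higher and 0 lower at an unadjusted limma p under 0.05. These are 16.7% and 0%, against 11% and 9.48% of all genes tested. The median log2 fold change of the 30 was 0.08. RILPL1, which binds RAB8 and RAB10, was 10.5 ± 1.05 in lean and 13.9 ± 1.88 in obese pigs, and RUFY1, an effector of RAB4 and RAB14, was 2.66 ± 0.192 in lean and 3.27 ± 0.326 in obese pigs (SD, n = 5 each). RUFY1 had no overlap between the groups. MICALL1, of tubular recycling endosomes, was 1.08 ± 0.821 in lean and 2.69 ± 1.34 in obese pigs, and VPS39, of the HOPS tether, was 4.58 ± 0.875 in lean and 6.07 ± 1.06 in obese pigs.

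Markers of other cells were measured in the same libraries, and their part in the member values was not tested. Beside the counts of these lists, 11% of all genes tested were higher and 9.48% lower at an unadjusted limma p under 0.05. Stroma and fibroblast markers were tested in 10 of 15 identifiers, of which 3 were lower and 0 higher at an unadjusted limma p under 0.05. Their summed level was 666, 717, 261, 516 and 820 in lean pigs and 510, 544, 644, 419 and 262 in obese pigs, 74.1% of it from COL3A1, and 5 identifiers, of PDGFRA, PDGFRB, FBLN1 and FN1, were under 1. FN1 was 5.87 ± 3.34 in lean and 1.60 ± 0.942 in obese pigs with no overlap, and COL6A3 was 3.75 ± 0.733 in lean and 1.70 ± 1.37 in obese pigs. DPT, at 36.4 ± 43.4 in lean and 6.93 ± 5.36 in obese pigs, and COL1A2 varied more among pigs of 1 group (SD, n = 5 each). COL1A2 has 2 identifiers, and it was 23.0 ± 11.2 in lean and 12.9 ± 9.51 in obese pigs at the one on chromosome 9 and 6.73 ± 3.36 and 3.84 ± 2.92 at the one on an unplaced sequence, which the naming rule takes.

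Macrophage and leukocyte markers were tested in 6 of 22 identifiers, with 0 under an unadjusted limma p of 0.05, and 16 identifiers were under 1, PTPRC, CD68, CD163 and CSF1R among them. Their sum was 37.4, 36.3, 33.6, 51.0 and 54.0 in lean pigs and 35.1, 33.9, 60.2, 33.7 and 90.6 in obese pigs, led by S100A8. S100A8 was 16.4 ± 5.18 in lean and 26.4 ± 24.4 in obese pigs, C1QC 5.84 ± 2.03 and 5.17 ± 1.79, CD14 2.03 ± 0.725 and 1.74 ± 0.542, and TYROBP 1.79 ± 0.791 and 1.552 ± 0.346 (SD, n = 5 each). No marker of this list separated the groups. Endothelial markers were tested in 2 of 9 identifiers, PECAM1 and EGFL7, and the other 7, VWF and KDR among them, were under 1. Their sum was 10.9, 17.6, 2.56, 13.3 and 6.11 in lean pigs and 10.9, 15.8, 12.0, 11.1 and 11.2 in obese pigs. EGFL7, at 2.35 ± 0.983 in lean and 5.10 ± 2.02 in obese pigs, was the 1 with an unadjusted p under 0.05, and PECAM1 was 5.14 ± 3.23 in lean and 5.02 ± 1.48 in obese pigs.

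Of 6 smooth muscle markers 1 was tested, TAGLN, which was higher in obese pigs at an unadjusted p under 0.05, at 6.35 ± 1.41 in lean and 8.52 ± 1.39 in obese pigs (SD, n = 5 each). The others, ACTA2, MYH11, CNN1, MYLK and DES, were under 1. The sum of the 6 was 6.21, 7.79, 4.41, 9.68 and 7.63 in lean pigs and 7.86, 10.4, 8.04, 8.15 and 11.3 in obese pigs. Of 5 erythroid markers HBB and HBA were tested, with 0 under an unadjusted limma p of 0.05, and their list summed to 48.4, 45.5, 15.7, 21.7 and 99.7 in lean pigs and 49.8, 31.8, 20.8, 26.0 and 27.5 in obese pigs. Lean pig-577 had the highest sum of these markers. HBB, the most abundant, was 38.0 ± 27.2 in lean and 24.6 ± 8.50 in obese pigs, and HBA 7.95 ± 5.90 and 6.45 ± 2.82 (SD, n = 5 each).

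Genes that respond to tissue dissociation were tested in 17 of 22 identifiers, of which 6 were lower and 0 higher in obese pigs at an unadjusted limma p under 0.05. They summed to 1242, 823, 2517, 2314 and 2585 in lean pigs and to 1359, 1675, 623, 1012 and 487 in obese pigs. Lean pig-413, pig-525 and pig-577 were above all other pigs. FOS, the most abundant, was 433.5 ± 198 in lean and 185 ± 101 in obese pigs, and BTG2 was 383 ± 198 in lean and 151 ± 104 in obese pigs. JUN, at 119 ± 54.9 and 58.9 ± 29.1, and IER2, at 7.24 ± 3.88 and 3.19 ± 2.48, were lower in obese pigs as well (SD, n = 5 each). Among the lean pigs, pig-413, pig-525 and pig-577, with the highest sums of these genes, had the lowest levels of TBC1D16, RAB3D and TBC1D9B. For TBC1D9, the other member without overlap, lean pig-407 was below pig-413 and pig-525. All of these members were named because every obese pig was above every lean pig, so their lowest pigs had to be lean. Whether the response to dissociation bears on the member values was not tested. Adipocyte markers had 3 of 8 genes higher in obese pigs at an unadjusted p under 0.05: LEP, the hormone leptin, was 29.0 ± 21.3 in lean and 119 ± 30.8 in obese pigs, AQP7, a glycerol channel, was 28.3 ± 2.28 and 50.2 ± 9.58, and CEBPA 11.4 ± 4.0 and 18.1 ± 3.17. PLIN4 was 128 ± 32.4 in lean and 157 ± 17.9 in obese pigs.

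Captured methylated DNA was examined through the 7401 regions that the authors deposited as differing between obese and lean pigs. Each region carries a normalized read count for 11 obese and 11 lean libraries without the names of the pigs. The lean group of that comparison includes pig-411, which its label calls obese, and obese pig-584 has no library in it. Because the regions were chosen for their difference on these libraries, the values are descriptions with no test. At least 1 region overlapped 10 of 72 member loci (13.9%), beside 8.73% of all 25285 loci. Member loci were longer than most, and the part of length in this share was not tested. The median locus was 22201 bases for members and 9033 for all identifiers, and 46521 for members with a region against 21195.5 for those without. Where both groups together averaged 20 normalized reads or more, 3 member loci had a region (4.17%, beside 3.44% of all loci). The 10 loci belong to 9 symbols and hold 13 regions, 5 with more and 8 with less captured DNA in obese pigs, while 2165 of all regions had more and 5236 less.

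In TBC1D16 the captured region was chr12:2504401-2505400. Its normalized count ran from 2.63 over a median of 6.85 to 13.4 in lean libraries and from 7.33 over a median of 11.5 to 20.3 in obese libraries. All 11 obese libraries were above the lean median, and the ranges overlapped. The group means were 7.67 and 13.5, a ratio of 1.76. The region lies 50093 bases from the lower end of the locus and 20644 from the upper end, between the CpG sites that start at 2500597 and 2517389.

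RAB22A carried a pair of regions, both with less captured DNA in obese pigs. At chr17:65733001-65734000 lean libraries ran from 10.1 over a median of 18.7 to 26.6 and obese libraries from 2.91 over 11.5 to 17.1. At chr17:65753501-65754600 the group means were 12.4 in lean and 6.91 in obese libraries. All 11 obese libraries were below the lean median in the first region and 10 of 11 in the second. TBC1D5, another gene with an unadjusted p under 0.05 for its expression, had a region at chr13:4773501-4774500 with means of 14.3 in lean and 8.57 in obese libraries. RAB22A RNA was thus higher and TBC1D5 RNA lower in obese pigs beside regions of the same direction.

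TBC1D14, a regulator of recycling endosomes and autophagy, carried 3 regions. The first, chr8:3291801-3293100, had means of 24.9 in lean and 36.0 in obese libraries, and the third, chr8:3339001-3340000, had 22.7 and 31.3. The middle one, chr8:3325201-3326800, was opposite, with 25.5 in lean and 17.1 in obese libraries. So directions differed within 1 gene, whose RNA was 2.0 ± 0.221 in lean and 2.31 ± 0.219 in obese pigs (SD, n = 5 each). TBC1D1 also had both directions. At chr8:30793601-30795100 the means were 25.7 in lean and 16.4 in obese libraries, and at chr8:30881701-30882800 they were 13.7 and 21.96.

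The other 4 genes with captured regions had 1 each. TBC1D13 had more captured DNA in obese pigs at chr1:303164401-303165800, 131 bases from the upper end of its locus, with means of 21.4 in lean and 30.2 in obese libraries. RAB18 had less at chr10:53863901-53865200, with 12.6 in lean and 6.33 in obese libraries, the lowest ratio of the 13, 0.503. TBC1D2B had 15.4 and 9.5 at chr7:53421201-53422200, where all 11 obese libraries were below the lean median. RAB38, whose RNA is listed at 0 in every pig, had 17.8 and 11.2 at chr9:23851301-23852500. TBC1D2B RNA was 1.26 ± 0.262 in lean and 1.02 ± 0.362 in obese pigs (SD, n = 5 each), with overlapping groups. In all 13 regions the ranges of obese and lean libraries overlapped.

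**Figure D4:**
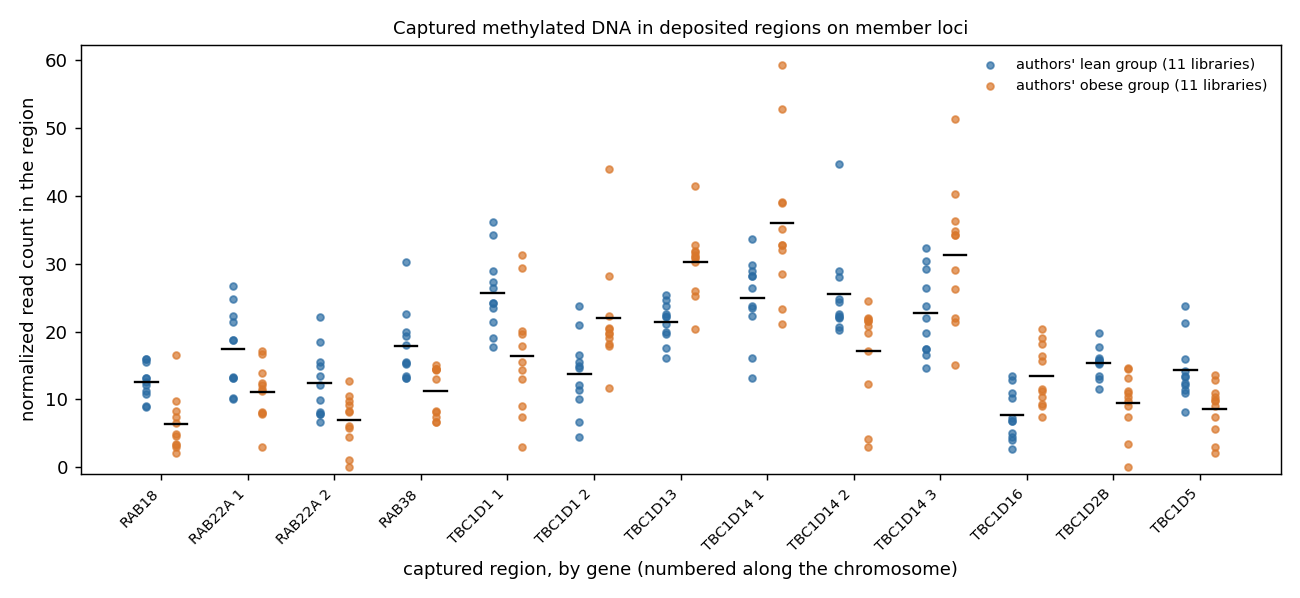
Normalized read count of captured methylated DNA in the 13 deposited regions on member loci, for 11 libraries of the authors' lean group and 11 of their obese group, with the group means as lines. Regions of 1 gene are numbered along the chromosome. The ranges overlap in every region, and TBC1D14 and TBC1D1 hold regions of both directions.

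RRBS regions were deposited with the mean methylation of each group alone, so no spread between pigs can be given. Besides pig-411, 12 pigs with an RRBS library are labelled obese and 10 lean. Pig-411 is labelled obese here too, while the animal numbers of the study leave it to the lean group, as in mDNAcap. The number of pigs behind a single mean is unknown. The coverage behind single regions is unknown, and the genome-wide coverage described by the study is low. Of 610 regions with values in at least 5 animals per group, 403 had more and 207 less methylation in obese pigs. They overlapped 4 member loci (5.56%) beside 1.08% of all loci, each with 1 region and each with the higher mean in obese pigs. In TBC1D16 the region chr12:2482106-2482353 with 13 CpGs had a mean methylation of 55.4% in lean and 66.9% in obese pigs, by far the highest level of the 4. It contains the CpG of the stretch that starts at 2482258. RAB34, of Golgi and cilium, had 3.64% in lean and 17.3% in obese pigs over 12 CpGs at chr12:46940264-46940355. RAB37 had 8.25% and 18.6% over 12 CpGs at chr12:6474955-6475046, 85 bases from the lower end of its locus. TBC1D30, a regulator of RAB8 at the cilium, had 6.55% and 18.0% over 22 CpGs at chr5:32236467-32236699.

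With values in at least 3 animals per group, 2416 regions were deposited, and the same 4 member loci (5.56%) were overlapped, beside 3.79% of all loci. In RAB34, RAB37 and TBC1D30 the regions lay at nearly the same place, and in TBC1D16 the region was another one. That region, chr12:2500521-2500642, had 10 CpGs and a mean methylation of 3.73% in lean and 20.3% in obese pigs, and it contains the CpG of the stretch that starts at 2500597. The 3 deposited regions on TBC1D16, 1 from mDNAcap and 2 from RRBS, had the higher group mean in obese pigs, as did its RNA. Methylation elsewhere in the gene, the other two CpG sites included, was not analysed here. Other introns of this gene had less methylation in obese animals according to the study, so the shared direction holds for these regions alone. The RNA pigs are 10 of the pigs of the methylation assays, and methylation and RNA were not compared within pigs.

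**Figure D5:**
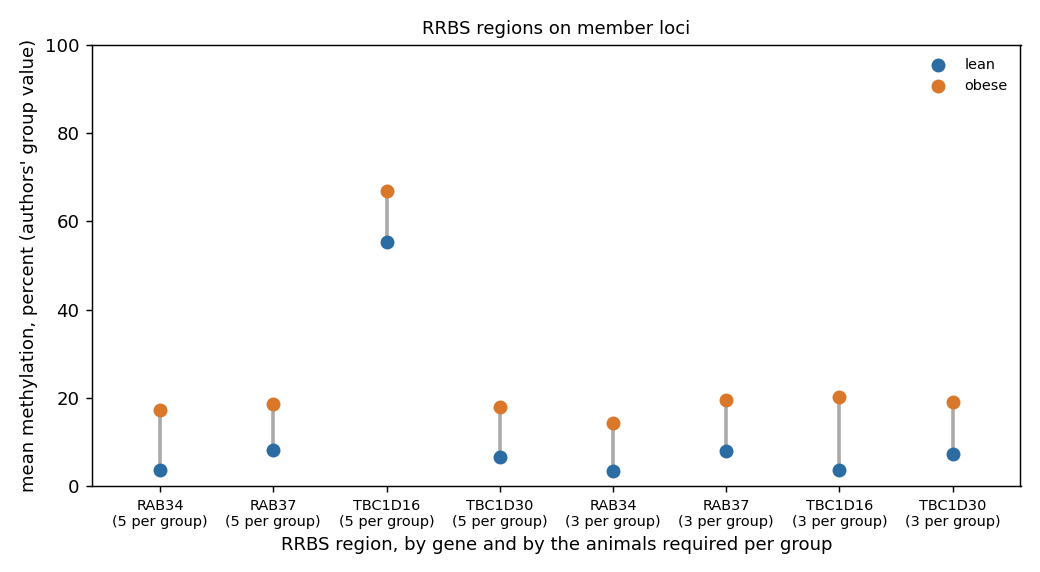
Mean methylation in percent, as the authors' group value, of the RRBS regions on member loci in lean and obese pigs, for regions that required at least 5 or at least 3 animals per group. All 8 pairs have the higher value in obese pigs, and no spread between pigs is known.

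RNA at the 3 other loci with RRBS regions was low. RAB34 stood at 0.333, 1.72, 1.94, 0.945 and 1.48 scaled FPKM in lean pigs and at 0.556, 0.506, 1.2, 0.389 and 0.380 in obese pigs. Lean pig-402 was below all obese pigs and the other lean pigs were above most of them. With a mean of 0.945 it was just under the smallest level tested, and the exact permutation p was 0.103 (n = 5 each). TBC1D30 was at 0.185, 0.299, 0.190, 0.108 and 0.0809 in lean pigs and at 0.153, 0.260, 0.441, 0.564 and 0.360 in obese pigs. Obese pig-524, pig-529 and pig-572 were above every lean pig, and the exact permutation p was 0.0556 (n = 5 each). RAB37 was above 0 in 1 pig alone, lean pig-407, at 0.0275.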

How the data were processed

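The authors mapped ribosome-depleted RNA reads to Sscrofa10.2 with STAR and deposited FPKM values per library from Cufflinks. For mDNAcap, the authors deposited a signal per region, the read count normalized for each library, from diffReps windows of 1000 bases. For RRBS, the authors deposited the mean methylation of each group as a fraction, and the deposited score is the number of CpGs in a region. Fractions were multiplied into percent. The authors' comparison columns hold fold changes, p-values and q-values and were not used, nor were their table of tested genes and their list of region clusters.

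FPKM of 52 entries that share an identifier with another were added, and 9 identifiers with a failed estimate were not tested. Values were divided by median-of-ratios size factors (0.691 to 1.20), and the 2 libraries of pig-572 were averaged. The 10196 genes with a mean of at least 1 were tested on log2(value + 1) with limma 3.58.1 (eBayes with trend, Benjamini-Hochberg) in R 4.3.3. For single genes all assignments of the pigs to the groups were also enumerated (exact permutation test, two-sided). Regions were assigned by an overlap of at least 1 base with Python 3.11.15. The fit was tested on simulated data. Sequencing depth cannot be read from FPKM: 8950 to 10291 genes reached an FPKM of 1 per library. RRBS coverage of single libraries and regions is unknown, the authors having required 5 reads at a CpG.

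Pigs were grouped by their labels. Pig-411 is labelled obese and stands in the lean group of the deposited mDNAcap comparison, which was kept as deposited. The description of the second pig-572 library names a different pig number, and its title was followed.

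The members and gene lists were chosen with earlier results of these data known. Members named with values were those without overlap, the 5 with the largest and the 5 with the smallest fold change, the 5 most abundant, those with a methylation region, those of the GLUT4 and lipid droplet lists, and TBC1D16. Of each other list, the up to 4 genes with the lowest p were named, exceptions are marked, and 1 gene that the rule takes is not reported here. Alternatives were another pseudocount (0.1), no filter, other scalings, each library of pig-572 alone or both as replicates, no trend, each pig left out, wider loci and stricter regions.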

Additional observations from a re-analysis of the deposited data

Results flagged for a closer look

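A pig that stood apart from the other pigs of its group was looked for in 174 groups of 5 values, and 16 groups held one, where the gap to the nearest pig exceeded 0.71 of the whole range. For independent values with a normal distribution, chance marks about 1 in 20 groups. These values are scaled FPKM without a log, and some groups share pigs and genes, so the 16 cannot be read against that share. Among members, RAB11A was lowest in lean pig-407 at 11.9 scaled FPKM (next pig 15.7), and TBC1D9 was lowest in lean pig-577 at 2.03 (next 3.04). In obese pig-433, RAB7A was highest at 38.9 (next 33.7), TBC1D13 at 5.24 (next 3.18) and the summed TBC1D genes at 176.8 (next 150.9). In obese pig-473, RAB33B was highest at 9.46 (next 7.26) and TBC1D14 lowest at 1.92 (next 2.40). RAB34 was highest in obese pig-524 at 1.2 (next 0.556).

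Among genes of the other lists, MON1B was lowest in lean pig-413 at 1.67 (next 2.13), and MICALL1 was highest in lean pig-402 at 2.49 (next 0.987). Stroma markers DPT and FN1 were highest in lean pig-577 at 111 (next 35.4) and 11.6 (next 5.45). COL1A2, at its identifier on an unplaced sequence, was lowest in lean pig-413 at 0.874 (next 7.30) and highest in obese pig-433 at 8.95 (next 3.21). HBA was highest in obese pig-433 at 11.3 (next 6.06), and the summed endothelial markers were highest in obese pig-473 at 15.8 (next 12.0).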

How the results depend on the processing

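The fit was repeated under 18 alternatives, 10 of which leave out 1 pig. Genes with an adjusted limma p under 0.05 numbered 1, and 5 with no filter, 0 on FPKM as deposited, 162 when the 2 pig-572 libraries entered as replicates, 16 with library pig-572(B) alone, and 1 to 146 when 1 pig was left out (146 without lean pig-402). Members past that threshold were 0 and became 1 with both pig-572 libraries as replicates, a setting that counts 1 animal 2 times. That member was TBC1D9 (adjusted p = 0.0372 by limma, with a range of 0.0372 to 0.247 over the alternatives). Before any alternative, 12 members had an unadjusted limma p under 0.05. Members higher at an unadjusted p under 0.05 were 9, 4 on FPKM as deposited (9.52% beside 5.98% of all genes) and 6 to 9 with 1 pig left out (all genes 7.97% to 13.8%). Those lower were 3, and 1 to 4 with 1 pig left out (1 without obese pig-572; all genes 5.96% to 12.4%). Members without overlap and higher in obese pigs were 4, 1 on FPKM as deposited (2.38% beside 0.976% of all genes) and 4 to 8 with 1 pig left out (all genes 2.68% to 5.73%), and those lower were 0, and 0 to 1 with 1 pig left out (all genes 1.84% to 4.36%). TBC1D9, RAB22A, RAB3D, RAB8B and TBC1D16 kept an unadjusted limma p under 0.05 in 18 of 18 alternatives. RAB2B, TBC1D5 and TBC1D9B kept it in 17, TBC1D8 in 12, TBC1D8B in 10, and RAB33B and TBC1D20 in 6. The groups did not overlap in 18 alternatives for TBC1D9, 17 for RAB3D, and 16 each for TBC1D16 and TBC1D9B. Of 504 log2 fold changes of 28 named members, 494 kept their sign. Over the 18 alternatives the log2 fold change ranged from 0.44 to 0.79 for TBC1D16 and from 0.67 to 1.16 for RAB3D. RAB10 (0.01) turned to −0.018 on FPKM as deposited and ranged from −0.12 (without lean pig-413) to 0.16 with 1 pig left out. With 1 pig left out, RAB13 ranged from −0.44 to 0.040 (without obese pig-433), and RAB32 from −0.18 to 0.19, above 0 without lean pig-525, lean pig-577 or obese pig-433. In the same way TYROBP ranged from −0.19 to 0.048 (without lean pig-525), S100A8 from −0.16 (without obese pig-572) to 0.57, PECAM1 from −0.17 (without lean pig-413) to 0.37, and HBA from −0.41 to 0.23 (without lean pig-577). Member loci with an mDNAcap region were 10, and 3 where both groups together averaged 20 normalized reads or more (4.17% of members beside 3.44% of all loci). Member loci with an RRBS region were 4, and 0 for differences of at least 20 points, which 0.0751% of all loci had. The causes were not tested. No paired analysis was possible because the lean and obese pigs are different animals.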

Other observations

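Another 11 identifiers carry a family symbol in the reference list of gene names and no matching symbol in the expression tables, so they are not among the 72 members. RAB6A, of Golgi traffic, was 18.1 ± 2.60 scaled FPKM in lean and 20.5 ± 1.49 in obese pigs, and RAB8A, the relative of RAB8B, was 4.64 ± 0.611 in lean and 5.20 ± 0.620 in obese pigs (SD, n = 5 each). RAB8A had a log2 fold change of 0.14 ± 0.10 (SE), beside −0.67 ± 0.22 for RAB8B, and the difference between the genes was not tested. TBC1D23 was 7.53 ± 0.565 in lean and 7.43 ± 0.690 in obese pigs, and TBC1D12 3.14 ± 1.3 and 2.42 ± 0.456. A second identifier of RAB28 stood at 11.1 ± 1.5 in lean and 9.17 ± 2.06 in obese pigs, and its log2 fold change was −0.27 ± 0.16 (SE). RAB17 is listed at 0 in every pig.

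The 2 libraries of pig-572 differed by gene. TBC1D16 was at 2.53 scaled FPKM in one and 3.32 in the other, a ratio of 1.31, while RAB3D was at 4.42 and 4.32 and TBC1D9B at 10.15 and 10.05. Both TBC1D16 values exceeded the highest lean pig, pig-407, at 2.19.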
